A study of Mus musculus with 4 samples.

Results

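The genes described here build ribosomes or make up the nucleolus: factors that process ribosomal RNA (rRNA), nucleolar assembly factors and scaffold proteins, subunits of RNA polymerase I, and Myc and Srm. They were chosen by gene symbol from a list of 43 genes. A probe set assigned to a single gene read 41 of them, out of 19938 genes read in this way. The list was drawn up with earlier results of these data known, so its counts describe these genes and are not a test. Ppan was read only by a probe set assigned to several genes, and none assigned to Noc2l was found, so both were left out. The cells were mouse embryonic fibroblasts (MEFs), a connective tissue cell grown from embryos, and their expression was read on 4 Affymetrix Mouse Gene 1.0 ST arrays. The groups were knockout-labelled cells in hypertonic medium, knockout-labelled cells in isotonic medium, wild-type cells in hypertonic medium and wild-type cells in isotonic medium, with 1 array each. The knockout is labelled NFAT5/TonEBP; the sources used here do not give its allele, nor whether each line came from 1 or several embryos or clones. Unsynchronised cells were held in their medium for 20 hours, and NaCl brought the hypertonic medium to 450 mosmol/kg. Each array was hybridised with a pool of 4 samples, so no spread between replicates can be seen, no test was possible, and every difference below describes these pools.

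Ribosomes are assembled mainly in the nucleolus, where RNA polymerase I copies the ribosomal DNA into a long precursor. The small subunit processome and small nucleolar ribonucleoproteins (snoRNPs) fold, modify and cut that precursor, and further factors mature the small (40S) and large (60S) subunits and send them to the cytoplasm. MYC is a transcription factor that binds the E-box CACGTG and is known to activate many of these genes in growing cells, fibroblasts among them, as well as Srm, encoding spermidine synthase. NFAT5, also named TonEBP, is a transcription factor that turns on osmoprotective genes when the surroundings of a cell become hypertonic. The arrays read messenger RNA, and the making of rRNA itself was not measured.

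Signals are given on the log2 scale, as deposited, and a difference of 1 is 2-fold. The array medians over all probe sets lay between 4.87 and 4.91, and arrays correlated at 0.979 to 0.989. Nfat5 itself read 8.24 and 8.03 on the knockout-labelled hypertonic and isotonic arrays, against 8.19 and 7.74 on the wild-type hypertonic and isotonic arrays. It was therefore not lower under the knockout label, and a probe set outside a deleted stretch would not check that label. Xist, a non-coding RNA made from the inactive X chromosome, read 3.16 and 3.75 in knockout-labelled hypertonic and isotonic cells, against 9.31 and 8.99 in wild-type hypertonic and isotonic cells, so the cells compared also differed in that respect. Of 11 fibroblast markers, 9 were above the dim limit on every array. That limit is the median of the single-gene probe sets of an array, between 5.38 and 5.44, and all 41 genes described here were above it on all 4 arrays, at 6.33 or higher. Endothelial and skeletal muscle markers were below it on every array. Of 5 macrophage and blood markers Cd68 alone came near it, at 5.31 to 5.62, and was above it on 3 arrays. Among epithelial markers Epcam was below it and Krt18 and Krt19 above it on every array, and Krt8 was above it on 3. Cdh1 read 5.21 and 5.17 in knockout-labelled hypertonic and isotonic cells, below the limit. It read 6.04 and 5.88 in wild-type hypertonic and isotonic cells, above the limit. Among neural markers Sox10 was below it and Map2 and Tubb3 above it on every array. Tubb3 read 5.86 and 5.42 in knockout-labelled hypertonic and isotonic cells, against 6.93 and 7.51 in wild-type hypertonic and isotonic cells. The part of such cells in the results was not tested. In pooled cells, fewer cells of a kind and less RNA per cell cannot be told apart.

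The first comparison asked how wild-type cells responded to hypertonic medium. All 41 genes read lower in hypertonic than in isotonic wild-type cells, where 53.9% of the 10134 genes measured in that comparison did. Their median difference was -0.66, with quartiles at -0.78 and -0.45, beside -0.02 for all measured genes. Differences of at least 1.5-fold were seen for 23 of the 41, against 3.3% of all measured genes, and 2 were at least 2-fold lower, against 0.414% of all. The reductions were thus mostly of moderate size and shared across the group. Probe sets that read the same gene differed in this response with an SD of 0.15 per probe set over 459 genes. Of the 41 genes 40 were lower by more than that, and the exception was Npm1. Both probe sets of a gene were read on the same arrays, so this SD leaves out variation between arrays, pools and cultures. The wild-type hypertonic array held the lowest of the 4 signals for 34 of the 41 genes and the highest for none, while among all 10542 genes above the dim limit on some array it was lowest for 28.3% and highest for 23.2%.

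**Figure D1:**
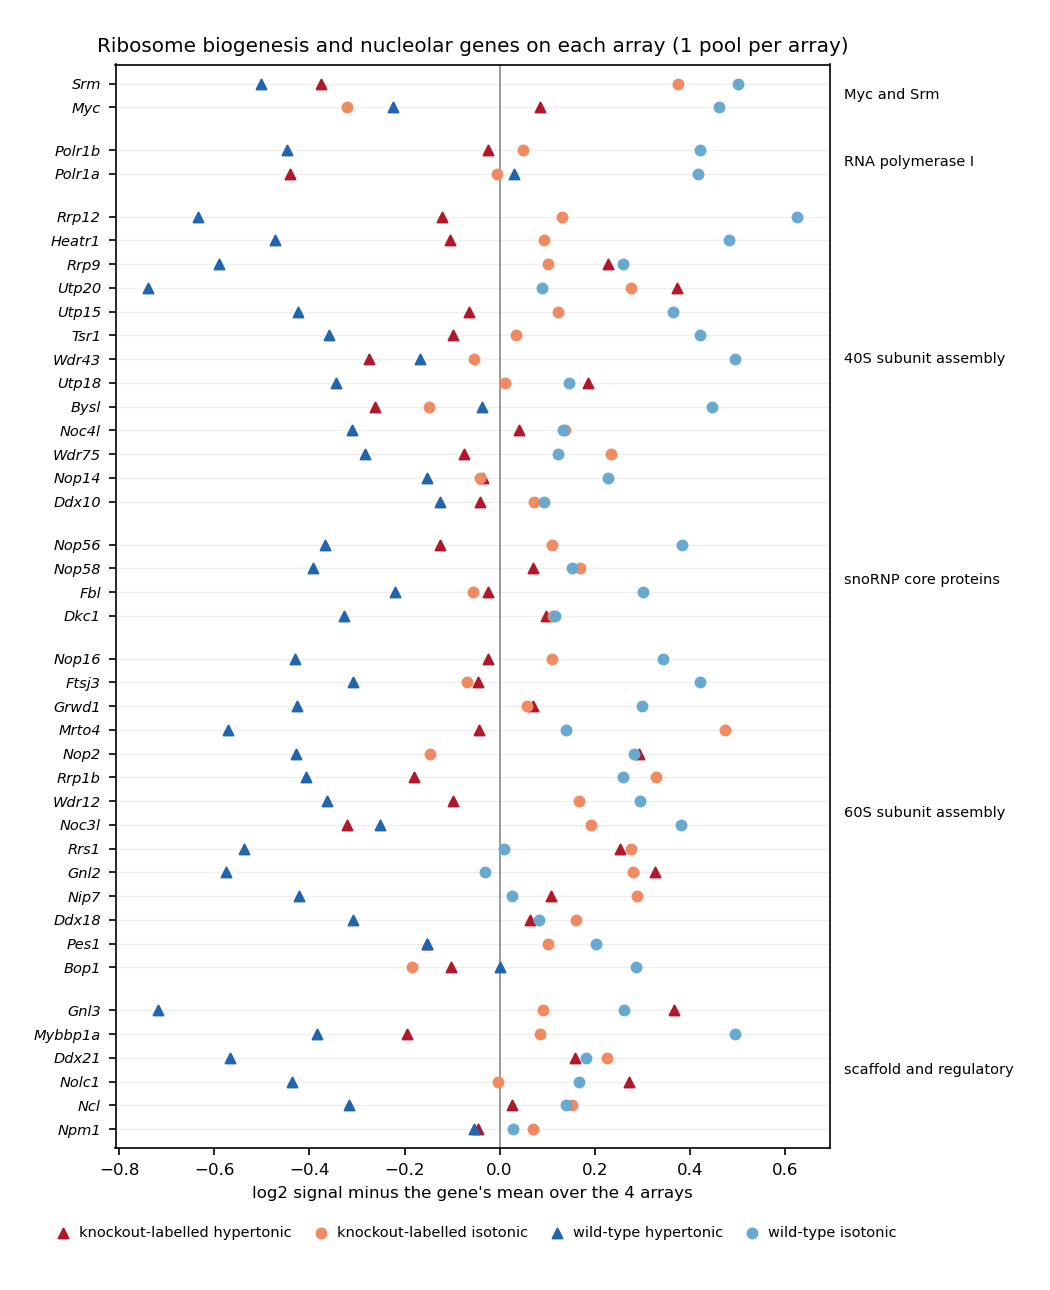
Log2 signal of each of the 41 genes on each array, minus the gene's own mean over the 4 arrays, with genes grouped by role and ordered within a role by the wild-type response; each symbol is 1 array hybridised with a pool. The dark blue triangles of wild-type hypertonic cells lie at the left end for 34 genes, and the light blue circles of wild-type isotonic cells at the right end for 24. Among all genes above the dim limit on some array, those arrays were lowest for 28.3% and highest for 20.5%, in the same order.

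Because E-boxes are the sites through which MYC is known to act on such genes, the 300 bases around the annotated start of each gene, 250 before and 50 after it, were searched for CACGTG in the RefSeq sequences of build GRCm38.p6. The motif reads the same on both strands. Promoters were listed for 33 of the 41 genes, and 8 of them (24.2%) held CACGTG, against 12.4% of the 8487 measured genes with a listed promoter and 8.09% of all 27025 listed genes. In a list of further ribosome biogenesis genes, taken up below, 14 of 77 with a listed promoter (18.2%) held CACGTG. Taken promoter by promoter, 7.15% of all 32851 sequences of that length held it. CACGTG holds a CpG, and the CpG count had a median of 22 per promoter in the 33 genes and 22 in measured genes. The 8 matches are shown in windows of 30 bases, in order of the wild-type response from the most negative, with the motif in capitals and its first base counted from the gene start:
Mybbp1a (chr11:72441347-72441376, plus strand, position 41): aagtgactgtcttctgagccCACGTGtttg
Utp20 (chr10:88826765-88826794, minus strand, position 38): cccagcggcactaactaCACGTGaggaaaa
Tsr1 (chr11:74898092-74898121, plus strand, position 25): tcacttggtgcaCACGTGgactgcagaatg
Grwd1 (chr7:45830740-45830769, minus strand, position 35): aagggccggagtcgCACGTGtgaaaccgga
Nop2 (chr6:125131811-125131840, plus strand, position -60): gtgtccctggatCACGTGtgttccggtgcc
Wdr43 (chr17:71616220-71616249, plus strand, position 18): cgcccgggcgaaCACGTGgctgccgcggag
Utp18 (chr11:93885769-93885798, minus strand, position -20): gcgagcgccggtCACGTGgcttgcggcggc
Pes1 (chr11:3963965-3963994, plus strand, position 3): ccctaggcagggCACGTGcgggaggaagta
In 6 of the 8 the motif starts after the gene start, within the first 50 transcribed bases. A variant, CACGCG on either strand, was held by 9 of the 33 promoters (27.3%), against 21.2% of measured genes. Of the 77 further ribosome biogenesis genes 32.5% held that variant. Genes with and without CACGTG overlapped in the wild-type response. The 8 with it had a median of -0.72 and ran from -0.88 to -0.36. The 25 without it had a median of -0.63 and ran from -0.98 to -0.22. No promoter was listed for Myc, Srm, Rrp12, Gnl2, Fbl, Npm1, Bop1 and Rrs1. The largest response (Rrp12, -1.26) and the smallest (Npm1, -0.08) are therefore in neither set. The part of MYC in these responses was not tested. A match is a description of the sequence, and no binding was measured.

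Myc and Srm were both lower in hypertonic wild-type cells. Myc read 7.84 and 7.44 in knockout-labelled hypertonic and isotonic cells, against 7.53 and 8.22 in wild-type hypertonic and isotonic cells. The wild-type isotonic array stood above the other three, and the difference between the wild-type media was -0.69. For Srm, whose product makes the polyamine spermidine, the signals were 9.13 and 9.88 in knockout-labelled hypertonic and isotonic cells, against 9.01 and 10.01 in wild-type hypertonic and isotonic cells. Both hypertonic arrays read lower than both isotonic arrays, and Srm was the 1 gene of the group at least 1.5-fold lower under hypertonic medium in each genotype, by 1.68-fold in knockout-labelled cells and just past 2-fold in wild-type cells.

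The catalytic core subunits of RNA polymerase I did not move alike. Polr1b, encoding the second largest subunit, read 7.85 and 7.92 in knockout-labelled hypertonic and isotonic cells, against 7.43 and 8.30 in wild-type hypertonic and isotonic cells, with responses of -0.07 in knockout-labelled and -0.87 in wild-type cells. Polr1a, encoding the largest subunit, read 7.59 and 8.02 in knockout-labelled hypertonic and isotonic cells, against 8.06 and 8.44 in wild-type hypertonic and isotonic cells. Its response was nearly the same in both genotypes, -0.44 in knockout-labelled and -0.39 in wild-type cells, and it was lower under the knockout label in both media.

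The 13 genes of the small subunit processome and 40S maturation had a median wild-type response of -0.66, and 7 were at least 1.5-fold lower. Rrp12, whose yeast counterpart takes part in the export of both ribosomal subunits, had the largest response of the 41 genes. It read 7.21 and 7.46 in knockout-labelled hypertonic and isotonic cells, against 6.70 and 7.96 in wild-type hypertonic and isotonic cells, a 2.40-fold reduction in the wild type. Heatr1, the counterpart of yeast Utp10 in the complex that links precursor transcription to processing, read 8.26 and 8.45 in knockout-labelled hypertonic and isotonic cells, against 7.89 and 8.84 in wild-type hypertonic and isotonic cells. As for Rrp12, the knockout-labelled arrays lay between the wild-type ones. Utp20, a large scaffold protein of the processome, read 9.01 and 8.92 in knockout-labelled hypertonic and isotonic cells, against 7.90 and 8.73 in wild-type hypertonic and isotonic cells, and here the wild-type hypertonic array alone stood low. The same held for Rrp9, a protein of the U3 snoRNP, at 8.46 and 8.34 in knockout-labelled hypertonic and isotonic cells, against 7.64 and 8.49 in wild-type hypertonic and isotonic cells. Further wild-type responses were -0.79 for Utp15, which belongs to the same early complex as Heatr1, -0.78 for Tsr1, which acts on late 40S precursors, and -0.44 for Noc4l. Wdr43, of that early complex too, read 9.36 and 9.58 in knockout-labelled hypertonic and isotonic cells, against 9.47 and 10.13 in wild-type hypertonic and isotonic cells. Bysl, encoding the 40S maturation factor bystin, read 7.34 and 7.46 in knockout-labelled hypertonic and isotonic cells, against 7.57 and 8.05 in wild-type hypertonic and isotonic cells. In both of these genes the wild-type isotonic array stood highest and the knockout-labelled hypertonic array lowest. Utp18, a processome gene, read 8.34 and 8.17 in knockout-labelled hypertonic and isotonic cells, against 7.81 and 8.30 in wild-type hypertonic and isotonic cells, the wild-type hypertonic array alone being low. The smaller responses of this role were those of Wdr75, Nop14 and the RNA helicase gene Ddx10, at -0.41, -0.38 and -0.22 in wild-type cells. Wdr75 read 8.07 and 8.38 in knockout-labelled hypertonic and isotonic cells, against 7.86 and 8.27 in wild-type hypertonic and isotonic cells. Nop14 read 8.81 and 8.80 in knockout-labelled hypertonic and isotonic cells, against 8.69 and 9.07 in wild-type hypertonic and isotonic cells. Ddx10 read 8.11 and 8.22 in knockout-labelled hypertonic and isotonic cells, against 8.03 and 8.25 in wild-type hypertonic and isotonic cells, so that its 4 arrays lay close together.

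The 4 snoRNP core protein genes were lower by similar amounts. Nop56, a scaffold of the box C/D snoRNPs that guide rRNA methylation, read 9.56 and 9.79 in knockout-labelled hypertonic and isotonic cells, against 9.31 and 10.07 in wild-type hypertonic and isotonic cells. The wild-type responses were -0.75 for Nop56, -0.54 for its partner Nop58, -0.52 for Fbl, encoding the methyltransferase fibrillarin, and -0.44 for Dkc1, encoding the pseudouridine synthase of the box H/ACA snoRNPs. In knockout-labelled cells these genes differed between media by -0.24, -0.10, 0.03 and -0.02 in the same order.

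Among the 14 genes of 60S subunit assembly the median wild-type response was -0.65, and 8 were at least 1.5-fold lower. Nop2, encoding an rRNA cytosine methyltransferase, read 8.42 and 7.98 in knockout-labelled hypertonic and isotonic cells, against 7.70 and 8.41 in wild-type hypertonic and isotonic cells. Its signals in knockout-labelled hypertonic and wild-type isotonic cells were almost equal, and the media differed in opposite directions in the genotypes. Mrto4, whose yeast counterpart holds the place of the ribosomal stalk on 60S precursors, read 8.58 and 9.10 in knockout-labelled hypertonic and isotonic cells, against 8.05 and 8.76 in wild-type hypertonic and isotonic cells. In this gene both genotypes read lower in hypertonic medium, by 0.52 in knockout-labelled and 0.71 in wild-type cells. The GTPase gene Gnl2 read 8.14 and 8.10 in knockout-labelled hypertonic and isotonic cells, against 7.24 and 7.79 in wild-type hypertonic and isotonic cells, so that both knockout-labelled arrays lay above both wild-type arrays; the same held for Rrs1, at 7.68 and 7.71 in knockout-labelled hypertonic and isotonic cells, against 6.89 and 7.44 in wild-type hypertonic and isotonic cells, and for Nip7, at 7.75 and 7.93 in knockout-labelled hypertonic and isotonic cells, against 7.21 and 7.66 in wild-type hypertonic and isotonic cells. The methyltransferase gene Ftsj3 read 9.21 and 9.19 in knockout-labelled hypertonic and isotonic cells, against 8.95 and 9.68 in wild-type hypertonic and isotonic cells, and its knockout-labelled arrays lay between the wild-type ones. Rrp1b read 6.55 and 7.06 in knockout-labelled hypertonic and isotonic cells, against 6.33 and 6.99 in wild-type hypertonic and isotonic cells. Noc3l read 7.16 and 7.67 in knockout-labelled hypertonic and isotonic cells, against 7.23 and 7.86 in wild-type hypertonic and isotonic cells. In these last genes both hypertonic arrays were below both isotonic arrays. Other wild-type responses were -0.78 for Nop16, -0.72 for Grwd1 and -0.39 for the RNA helicase gene Ddx18. The proteins of the PeBoW complex, which act together in 60S maturation, differed in their messenger RNAs: Wdr12 had a wild-type response of -0.66, Pes1 of -0.36 and Bop1 of -0.29. Pes1 read 8.57 and 8.83 in knockout-labelled hypertonic and isotonic cells, against 8.57 and 8.93 in wild-type hypertonic and isotonic cells. Bop1 read 8.69 and 8.6 in knockout-labelled hypertonic and isotonic cells, against 8.79 and 9.07 in wild-type hypertonic and isotonic cells, with the wild-type isotonic array above the others.

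The 6 nucleolar scaffold and regulatory genes had a median wild-type response of -0.68, and Npm1 among them had the smallest wild-type response of the 41 genes. Gnl3, encoding the GTPase nucleostemin, read 9.11 and 8.83 in knockout-labelled hypertonic and isotonic cells, against 8.02 and 9.0 in wild-type hypertonic and isotonic cells. The wild-type hypertonic array stood low by itself, 1.97-fold below wild-type isotonic. Mybbp1a, encoding a nucleolar protein that binds RNA polymerase I and MYB, read 8.95 and 9.23 in knockout-labelled hypertonic and isotonic cells, against 8.76 and 9.64 in wild-type hypertonic and isotonic cells. The helicase gene Ddx21 read 9.76 and 9.83 in knockout-labelled hypertonic and isotonic cells, against 9.04 and 9.79 in wild-type hypertonic and isotonic cells, a response seen in the wild type alone at this size. Nolc1, encoding a chaperone of snoRNPs, read 8.62 and 8.35 in knockout-labelled hypertonic and isotonic cells, against 7.92 and 8.52 in wild-type hypertonic and isotonic cells. As for Gnl3, hypertonic medium went with a higher signal under the knockout label and a lower one in the wild type. Ncl, encoding nucleolin, had a wild-type response of -0.46. Npm1, encoding the abundant nucleolar protein nucleophosmin, read 10.62 and 10.74 in knockout-labelled hypertonic and isotonic cells, against 10.61 and 10.69 in wild-type hypertonic and isotonic cells. Its whole range over the 4 arrays was 0.12, below the SD between probe sets of a gene.

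The second comparison made the same contrast of media in knockout-labelled cells. Of the 41 genes 28 read lower in hypertonic medium and 13 higher, and 60.1% of all 10277 measured genes read lower. The median was -0.11, beside -0.09 for all measured genes. Over all genes with no dim limit the median was 0.03, so the group lay near the other genes above that limit and 0.14 below the median of all genes. None was at least 2-fold lower, against 3.08% of all measured genes, and 1, Srm (-0.75), was at least 1.5-fold lower, against 12% of all. The next lowest were Mrto4 (-0.52), Noc3l (-0.51), Rrp1b (-0.51) and Polr1a (-0.44). The highest were Nop2 (0.44), Myc (0.41), Gnl3 (0.28), Nolc1 (0.27) and Utp18 (0.17). With an SD of 0.19 per probe set in this comparison, 24 of the 41 genes lay within it of 0, 13 below and 4 above. This SD too leaves out variation between arrays. Across the 41 genes the knockout-labelled and wild-type responses, which share no array, had a Pearson's r of 0.07 and a Spearman's rho of 0.05, which only describe the scatter, since genes of 1 array do not replicate each other. Which knockout-labelled array is the hypertonic one was taken from its label alone, and with these arrays exchanged the median is 0.11.

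**Figure D2:**
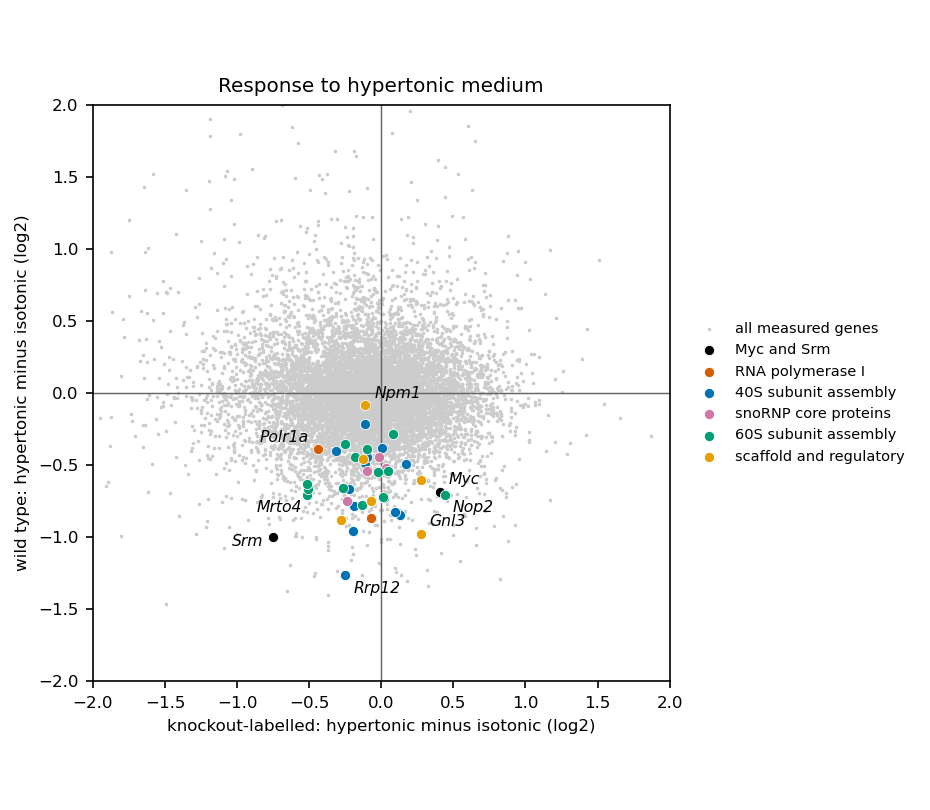
Response to hypertonic medium in knockout-labelled cells (horizontal axis) and wild-type cells (vertical axis), both as log2 hypertonic minus isotonic; grey points are 10515 measured genes, with 27 others outside the axes, and coloured points are the 41 genes by role. All coloured points lie below 0 on the vertical axis, between -1.26 and -0.08, while on the horizontal axis they spread on both sides of 0, from -0.75 to 0.44.

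In isotonic medium the knockout-labelled cells read slightly lower than wild-type cells for this group. The median difference was -0.17, beside 0.03 for all measured genes, and 28 of the 41 were below 0, against 45.2% of all 10191 measured genes. None was at least 2-fold lower, against 1.28% of all, and 2 were at least 1.5-fold lower, against 3.87% of all. These were Myc, 1.72-fold lower, and Bysl, 1.51-fold lower. Wdr43 (-0.55), Rrp12 (-0.49), Ftsj3 (-0.49) and Bop1 (-0.47) followed. The genes with higher signals under the knockout label were led by Mrto4 (0.33), Gnl2 (0.31), Rrs1 (0.27), Nip7 (0.26) and Utp20 (0.19).

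In hypertonic medium the median lay on the other side of 0, though not every gene changed its order. By their brightest probe sets, the 13 genes that read higher under the knockout label in isotonic medium did so here too. The median difference was 0.35, beside -0.01 for all measured genes, and 35 of the 41 read higher in knockout-labelled than in wild-type cells, against 49.4% of all 10374 measured genes. Differences of at least 2-fold were seen for 2 genes, against 2.57% of all measured genes: Utp20 was 2.16-fold higher and Gnl3 2.12-fold higher. Those of at least 1.5-fold were seen for 8, against 8.72% of all, the others being Gnl2 (0.90), Rrp9 (0.82), Rrs1 (0.79), Ddx21 (0.73), Nop2 (0.72) and Nolc1 (0.71). Polr1a (-0.47), Bysl (-0.23), Wdr43 (-0.11), Bop1 (-0.10) and Noc3l (-0.07) read lower under the knockout label, and Pes1 read 8.57 on both arrays. Fibroblast markers also differed on the knockout-labelled hypertonic array, in the other direction. Of the 9 measured, 6 were at least 2-fold lower there than in wild-type hypertonic cells, against 6.43% of all measured genes, with a median of -1.55. In isotonic medium 8 of the 9 read lower under the knockout label, against 45.2% of all, with a median of -0.36. There 2 were at least 2-fold lower, against 1.28% of all. Between media, the knockout-labelled response had a median of -0.41 and was below 0 for 7 of the 9, against 60.1% of all. In wild-type cells 4 were at least 1.5-fold higher, against 4.12% of all, and the median of the 9 was 0.14. The log2 signals of all 11 summed to 86.6 and 89.8 in knockout-labelled hypertonic and isotonic cells, against 99.4 and 96.7 in wild-type hypertonic and isotonic cells. Such a sum of log2 values is not a total signal, and it includes Dcn and Lum, below the dim limit on every array. The markers differed unevenly. Of the 9 measured, S100a4 was furthest apart in hypertonic medium (-3.81), and Fn1 alone read higher there under the knockout label (0.23). The part of fibroblast markers in the differences of ribosome biogenesis genes was not tested.

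**Figure D3:**
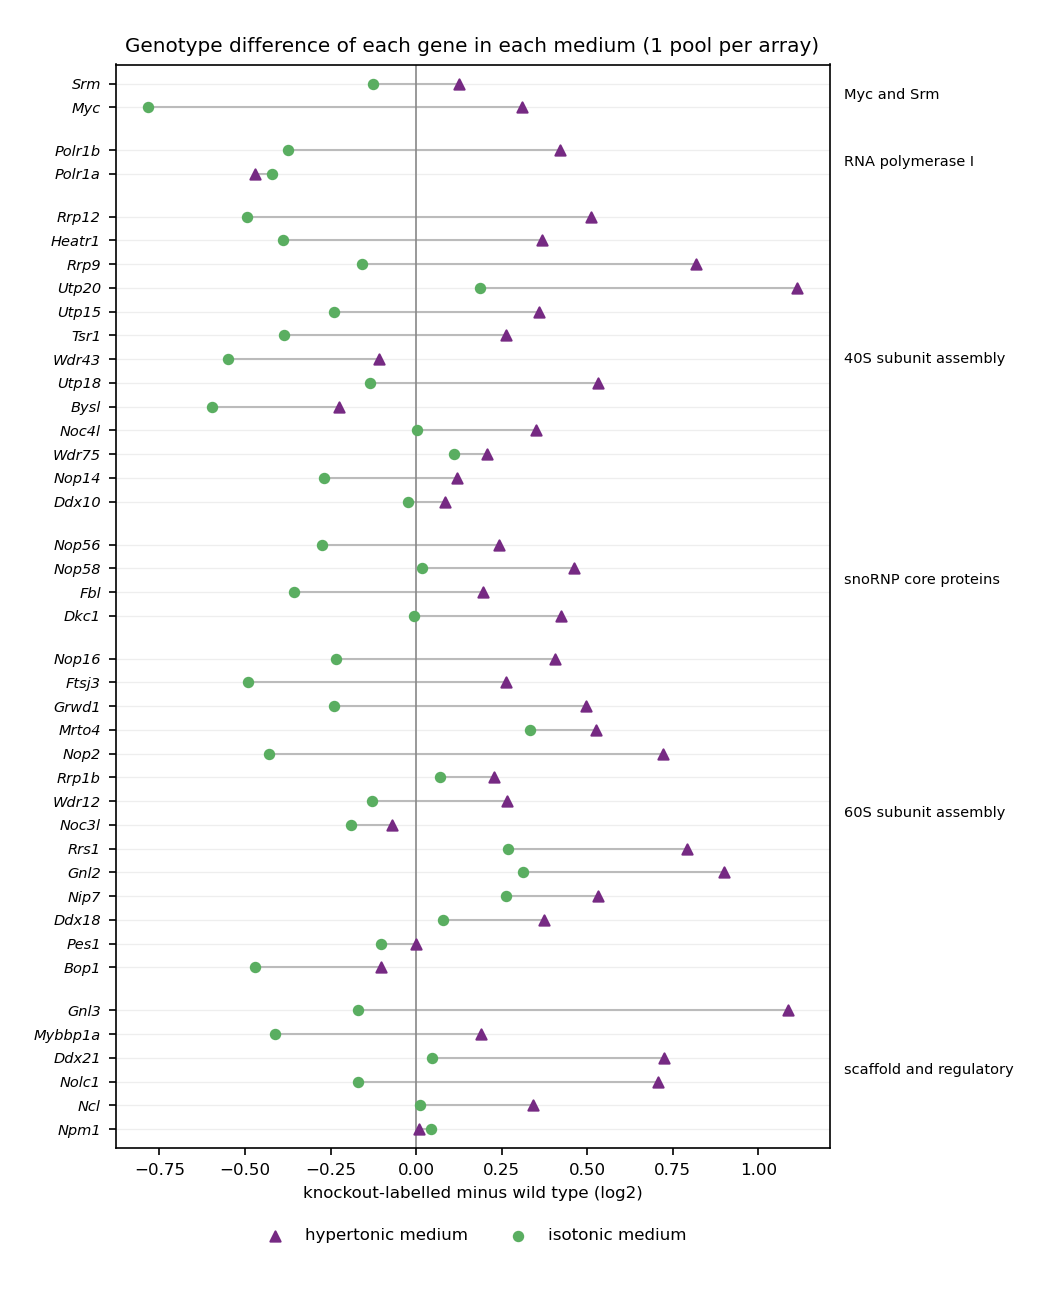
Difference between knockout-labelled and wild-type cells (log2) for each of the 41 genes in hypertonic medium (triangles) and isotonic medium (circles), grouped by role, each from 1 pool per group. For 39 genes the triangle lies right of the circle; 35 triangles lie above 0, and 28 circles lie below 0.

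The difference of the responses, knockout-labelled minus wild type, was above 0 for 39 of the 41 genes, against 44.5% of all 10542 measured genes. Its median was 0.52, beside -0.06 for all measured genes. At least 2-fold differences were found for 4 genes, against 1.41% of all measured genes, and at least 1.5-fold for 18, against 7.76% of all. The 4 were Gnl3 (1.26), Nop2 (1.15), Myc (1.09) and Rrp12 (1.01), and they arose in different ways. Rrp12 was lower in hypertonic medium in both genotypes, by 0.25 in knockout-labelled and 1.26 in wild-type cells, while, with the arrays as labelled, Gnl3, Nop2 and Myc were higher in hypertonic medium under the knockout label and lower in the wild type. Rrp9 (0.98), Utp20 (0.93), Nolc1 (0.88), Polr1b (0.79) and Heatr1 (0.76) followed. By role the median was 0.60 for the 40S group, 0.48 for snoRNP core proteins, 0.38 for the 60S group and 0.64 for scaffold and regulatory genes. Polr1a (-0.05) and Npm1 (-0.03) were the 2 genes below 0, and both turn positive, by at most 0.04, after quantile normalization, cyclic loess or centring. With the knockout-labelled arrays exchanged the median is 0.71 and 7 genes are at least 2-fold higher, but of the 4 named above Rrp12 (1.51) alone is among them: Gnl3 is then at 0.70, Myc at 0.28 and Nop2 at 0.27, and these 3 genes are then lower in hypertonic medium in both genotypes.

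The promoters of the 2 genes with the largest difference of responses are shown over the 100 bases before the gene start, in GRCm38.p6 from RefSeq, because one holds the E-box and the other does not; capitals mark CACGTG.
Nop2 (chr6:125131783-125131882, plus strand): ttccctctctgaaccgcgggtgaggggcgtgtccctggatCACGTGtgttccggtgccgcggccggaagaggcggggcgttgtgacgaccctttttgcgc
Gnl3 (chr14:31019132-31019231, minus strand): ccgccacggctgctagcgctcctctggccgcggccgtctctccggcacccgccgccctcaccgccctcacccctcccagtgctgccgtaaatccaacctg
Both are rich in CpG, with 12 such pairs in the Nop2 stretch and 11 in that of Gnl3. Genes with CACGTG had a median difference of responses of 0.66 (8 genes, from 0.10 to 1.15), and those without it of 0.39 (25 genes, from -0.05 to 1.26), so the ranges overlapped almost fully.

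Other genes of the pathway, in a list also chosen with earlier results known, gave a similar but smaller pattern. A list of 93 further ribosome biogenesis genes had 91 measured members, with medians of -0.10 in the knockout-labelled and -0.36 in the wild-type response. In knockout-labelled cells 62 of the 91 read lower in hypertonic medium, against 60.1% of all measured genes, and 3 were at least 1.5-fold lower, against 12% of all. In wild-type cells 84 read lower, against 53.9% of all, and 19 were at least 1.5-fold lower, against 3.3% of all. None was 2-fold lower in either response. The wild-type hypertonic array was lowest for 63 of the 91, against 28.3% of all 10542 measured genes. The knockout-labelled hypertonic array was lowest for 22 of the 91, against 37.8% of all. The processome gene Pwp2 read 7.66 and 7.73 in knockout-labelled hypertonic and isotonic cells, against 6.89 and 7.78 in wild-type hypertonic and isotonic cells. Urb1, a 60S assembly gene, read 7.87 and 7.85 in knockout-labelled hypertonic and isotonic cells, against 7.08 and 7.97 in wild-type hypertonic and isotonic cells. Rcl1, of the 40S pathway, had a wild-type response of -0.87 and was the 1 gene of that list with a difference of responses of at least 2-fold higher (1.01), against 1.41% of all measured genes. Aatf (-0.66 in knockout-labelled and -0.61 in wild-type cells) and the exosome gene Exosc7 (-0.60 and -0.54 in the same order) were lower in hypertonic medium in both genotypes.

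Genes for RNA polymerase I and III transcription had medians of -0.07 in the knockout-labelled and -0.10 in the wild-type response over 27 genes, and 3 were at least 1.5-fold lower in each, where 12% of all measured genes were so in knockout-labelled and 3.3% in wild-type cells. Polr1e, a further RNA polymerase I subunit, had responses of 0.03 and -0.75 in knockout-labelled and wild-type cells, and Polr3g and Polr3e, subunits of RNA polymerase III, of -0.60 and -0.995, and of -0.60 and -0.87. Polr3g read below the dim limit on both hypertonic arrays, so its size is poorly determined. Genes of the ribosome itself showed little: 27 cytosolic ribosomal protein genes had medians of -0.06 in knockout-labelled and -0.08 in wild-type cells, with none past 1.5-fold in either response. Medians of 25 genes of G1/S and DNA replication were -0.06 and -0.01, and those of 12 housekeeping genes -0.03 and -0.03, in knockout-labelled and wild-type cells. Of the MYC network, Max, the partner of MYC, read 8.75 and 8.50 in knockout-labelled hypertonic and isotonic cells, against 8.03 and 8.20 in wild-type hypertonic and isotonic cells. Mxd4, encoding a protein that competes with MYC for MAX, was higher in hypertonic medium by 0.49 in knockout-labelled and 0.76 in wild-type cells. Mycl, a relative of Myc, read 5.80 and 4.77 in knockout-labelled hypertonic and isotonic cells, against 5.21 and 4.94 in wild-type hypertonic and isotonic cells, above the dim limit on the knockout-labelled hypertonic array alone. The network as a whole had medians of 0.25 over 10 genes in knockout-labelled and 0.03 over 9 genes in wild-type cells.

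**Figure D4:**
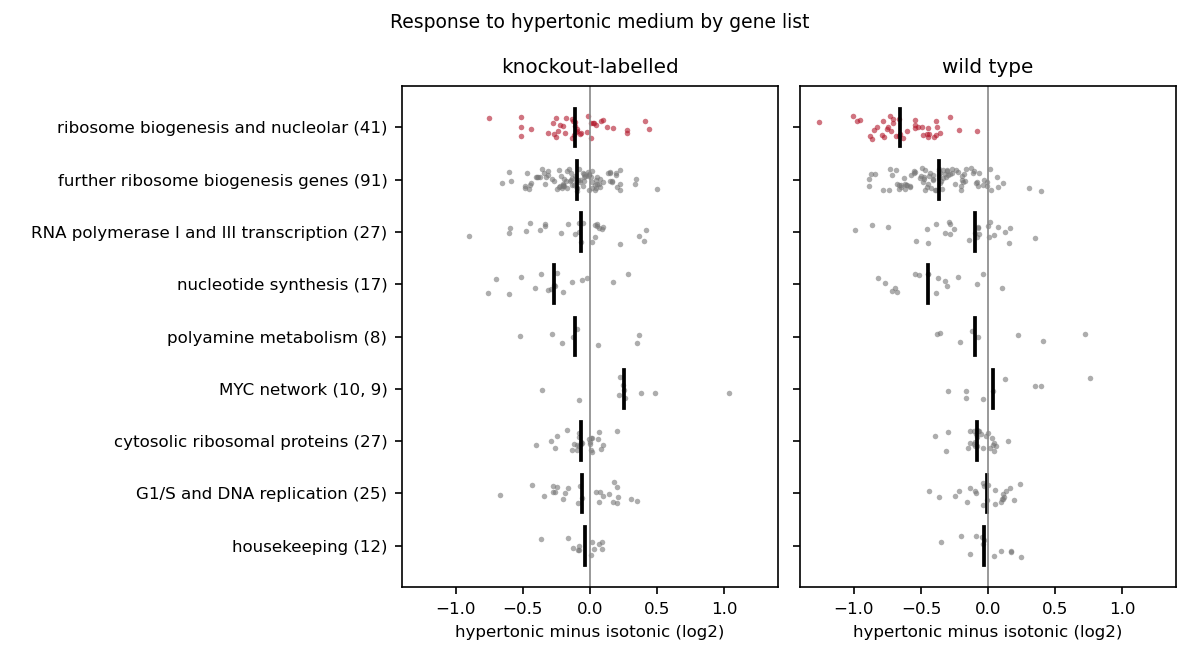
Response to hypertonic medium (log2 hypertonic minus isotonic) in knockout-labelled cells (left) and wild-type cells (right); each point is a gene of the list named at the left, with the number measured in brackets (knockout-labelled, then wild type, where they differ), and bars are medians. In wild-type cells the ribosome biogenesis and nucleolar genes centre on -0.66 and further ribosome biogenesis genes on -0.36, while cytosolic ribosomal protein genes centre on -0.08.

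Fbl, Wdr12, Ddx18 and Mrto4 were read by 2 probe sets each, which allows a check within the arrays. The genome positions of these probe sets were not looked up, so the 2 may not be independent readings of a gene. In the wild-type response the probe sets differed by little: -0.52 and -0.45 for Fbl, -0.66 and -0.64 for Wdr12, -0.39 and -0.50 for Ddx18, and -0.71 and -0.70 for Mrto4, with the brighter probe set given first. Knockout-labelled responses were 0.03 and 0.03, -0.26 and -0.22, -0.10 and 0.03, and -0.52 and -0.58 in the same order. Between genotypes in isotonic medium the probe sets of Wdr12 (-0.13 and 0.26) and Ddx18 (0.08 and -0.24) had opposite signs, so no direction is given for these genes there.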

How the data were processed

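The deposited table holds the authors' log2 signal for each of 35557 probe sets on 4 arrays; the log2 scale was read from its values, between 1.57 and 13.94. MAS5 (version not named) is credited to the submitters' processing notes; the sources used here do not state the background correction or normalization. Per the labels' protocols, a poly(T) primer started the amplification. Values were used as deposited. The platform annotation gave 1 gene symbol to 21789 probe sets, several to 1621 and none to 12147, and symbols were updated by Entrez identifier. The brightest probe set of a gene was used. Genes above the dim limit on at least 1 array of a comparison count as measured there. With 1 array per group, differences carry no test; counts use limits of 2-fold and 1.5-fold beside the share of all measured genes. Genes and lists were chosen with earlier results of these data known. Signals on all 4 arrays are given for genes past 2-fold, the 6 most negative and 6 most positive of each comparison and at least 1 of each role. From other lists the rule takes genes past 2-fold and the 3 largest differences of each comparison; only some of these are named, chosen after their values were seen. The 8 other lists and 6 marker lists were matched by symbol. The steps were tested on simulated data. Calculations used Python 3.11.15, pandas 2.3.3, numpy 2.4.6, scipy 1.17.1, matplotlib 3.10.9, R 4.3.3 and limma 3.58.1. Alternatives were quantile and cyclic loess normalization, centring, other dim limits, averaged probe sets, leaving out Myc and Srm, and a 1.5-fold limit. The reverse array order and the dimmer probe set were added after the results were seen. The number of arrays limits the precision.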

Additional observations from a re-analysis of the deposited data

Results flagged for a closer look

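All 41 genes were below 0 in the wild-type response. In the knockout-labelled response 28 were below 0 and 13 above, where 60.1% of all measured genes were below 0. Of these 13 genes with opposite signs, 4 exceeded the SD between probe sets of a gene in both responses. The share of all measured genes that meet this rule was not counted, so the 4 are only a description. That SD leaves out variation between arrays. The response under the knockout label, less that of the wild type, was 1.26 for Gnl3, 1.15 for Nop2, 1.09 for Myc and 0.88 for Nolc1. With 1 array per group this difference was not tested. The opposite signs rest on the labels of the arrays. Exchanging the knockout-labelled arrays only reverses the sign of each knockout-labelled response. These are then -0.28 for Gnl3, -0.44 for Nop2, -0.41 for Myc and -0.27 for Nolc1, and none of the 4 genes has opposite signs. The wild-type arrays were not exchanged.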

How the results depend on the processing

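Medians under the other settings, with the arrays in their labelled order, ran from -0.66 to -0.62 for the wild-type response, -0.11 to -0.02 for the knockout-labelled response, -0.22 to -0.17 and 0.35 to 0.36 for the genotype difference in isotonic and hypertonic medium, and 0.52 to 0.57 for the difference of responses. All 41 genes stayed below 0 in the wild-type response after quantile normalization, cyclic loess and centring. With the knockout-labelled arrays exchanged (reverse order) the knockout-labelled median turns to 0.11 and 7 genes are at least 2-fold higher in the difference of responses. The count of genes at least 2-fold lower in the wild-type response was 1 after quantile normalization, cyclic loess or centring, and 1 without Myc and Srm, since Srm lies at the limit. At 1.5-fold the counts became 23 in the wild-type response, 1 in the knockout-labelled response, 8 in the hypertonic genotype difference and 18 in the difference of responses. Of 300 recomputed differences of named genes in the labelled order, 290 moved by less than the SD between probe sets and kept their sign. Averaging probe sets or taking the dimmer one can change only the 4 genes with several probe sets. For every other gene those settings had to return the same value, so the count of 290 overstates the stability. With the knockout-labelled arrays exchanged, 28 of 60 moved by less than that SD and kept their sign. The wild-type responses among these could not change. No paired analysis was possible because each group has 1 array. Pooling hides the spread among samples, and signals near the dim limit carry background.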

Other observations

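Genes of nucleotide synthesis, whose products feed RNA synthesis, mostly read lower in hypertonic medium. Their 17 measured genes had medians of -0.27 in the knockout-labelled and -0.45 in the wild-type response, beside -0.09 and -0.02 for all measured genes. In knockout-labelled cells 15 were below 0, against 60.1% of all measured genes, and 3 were at least 1.5-fold lower, against 12% of all. In wild-type cells 16 were below 0, against 53.9% of all, and 5 were at least 1.5-fold lower, against 3.3% of all. Cad, encoding the enzyme of the first steps of pyrimidine synthesis, read 8.35 and 8.86 in knockout-labelled hypertonic and isotonic cells, against 8.50 and 9.32 in wild-type hypertonic and isotonic cells. Both hypertonic arrays were below both isotonic ones. Pfas, of purine synthesis, read 7.98 and 8.39 in knockout-labelled hypertonic and isotonic cells, against 7.92 and 8.69 in wild-type hypertonic and isotonic cells, with the same order. Impdh1, of guanine nucleotide synthesis, differed by 0.28 in knockout-labelled and -0.51 in wild-type cells.

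Of the polyamine genes beside Srm, Odc1, encoding ornithine decarboxylase, had responses of -0.10 in knockout-labelled and -0.38 in wild-type cells. Smox, encoding spermine oxidase, was higher in hypertonic medium by 0.06 in knockout-labelled and 0.72 in wild-type cells. The 8 measured genes of that list had medians of -0.11 and -0.10 in the same order.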
